A study of Homo sapiens with 27 samples.

Results

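The 10 genes described here encode the inducible brakes on MAP kinase signalling: the dual specificity phosphatases DUSP1, DUSP4, DUSP5, DUSP6, DUSP8 and DUSP10, the Sprouty proteins SPRY2 and SPRY4, and the Spred proteins SPRED1 and SPRED2. They were chosen by name from 23230 gene symbols, and all 10 passed the filter on low counts in each line. RNA was sequenced from 3 human cell lines in which MAML3, a Mastermind-like coactivator best known from Notch signalling, was overexpressed from a pCMV6-AC plasmid with a V5 tag at the C-terminus. SK-N-SH comes from a neuroblastoma, and the other lines, BON-1 and QGP-1, from neuroendocrine tumours of the pancreas. In each line the groups were MAML3 without its first exon (dEx1), full-length MAML3 (FL) and the empty plasmid (vector), each as 3 biological replicates, which gave 27 libraries. Cells were transfected with a lipid reagent and RNA was taken on day 3, from whole cultures in which the share of transfected cells is not given. The lines were grown in different media (EMEM, DMEM/F12 and RPMI), so medium and line cannot be told apart.

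Growth factor receptors signal through RAS and the kinases RAF and MEK to ERK, and stress signals run through parallel cascades to JNK and p38. MAP kinase phosphatases remove the activating phosphates from these kinases, while Sprouty and Spred proteins act further up, between the receptor and RAF. Many of these genes are themselves transcribed in answer to ERK activity, so their transcripts are often read together with early genes such as EGR1.

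The levels below are CPM, counts scaled to library size, and fold changes are log2 values fitted by edgeR with an SE. A gene was called when its p from edgeR's quasi-likelihood test, adjusted by the Benjamini-Hochberg method over all genes tested, was under 0.05. In SK-N-SH, 2 of the 10 genes were called for dEx1 against vector, 1 for FL against vector and 4 for dEx1 against FL. Of all genes, 4.47%, 1.74% and 22% were called in these comparisons. DUSP5 and DUSP6 were lower with dEx1 than with vector and than with FL, SPRY2 was lower with FL than with vector and higher with dEx1 than with FL, and DUSP10 was lower with dEx1 than with FL. None of the 10 was called between constructs in BON-1 or QGP-1. MAML3 itself was high in each library that received it: 4787 to 13448 CPM with dEx1, 7635 to 15250.2 with FL and 16.3 to 29.2 with vector in SK-N-SH, 3086 to 3941, 2683 to 5148 and 60.6 to 68.7 in BON-1, and 2728 to 5894, 2421 to 9001 and 41.3 to 101 in QGP-1, in the same order of groups. A count per gene cannot tell the plasmid's transcript from the native one.

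Promoters of some members are shown so that the sequences next to these genes can be read beside their levels. They include both in which the element marked in capitals below was found. RefSeq promoter entries on GRCh38.p14 were read for 8 of the 10 members. No entry was found for DUSP5, and DUSP4 was left out of the search. The 250 bases before the first listed start of DUSP8, DUSP1, DUSP6, DUSP10 and SPRY2 are given 5′ to 3′ on the gene's strand, with the cyclic AMP response element TGACGTCA in capitals.
DUSP8 (chr11:1572272-1572521, minus strand): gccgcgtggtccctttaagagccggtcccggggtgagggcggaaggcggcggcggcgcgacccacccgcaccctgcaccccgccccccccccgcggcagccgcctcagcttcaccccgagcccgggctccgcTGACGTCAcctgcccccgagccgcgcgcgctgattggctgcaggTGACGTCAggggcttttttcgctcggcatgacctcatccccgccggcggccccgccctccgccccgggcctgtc
DUSP1 (chr5:172771196-172771445, minus strand): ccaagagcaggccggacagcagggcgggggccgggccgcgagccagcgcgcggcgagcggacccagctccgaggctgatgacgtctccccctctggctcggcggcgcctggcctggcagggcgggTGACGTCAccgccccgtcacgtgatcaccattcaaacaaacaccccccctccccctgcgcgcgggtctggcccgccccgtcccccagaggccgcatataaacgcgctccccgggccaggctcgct
DUSP6 (chr12:89352502-89352751, minus strand): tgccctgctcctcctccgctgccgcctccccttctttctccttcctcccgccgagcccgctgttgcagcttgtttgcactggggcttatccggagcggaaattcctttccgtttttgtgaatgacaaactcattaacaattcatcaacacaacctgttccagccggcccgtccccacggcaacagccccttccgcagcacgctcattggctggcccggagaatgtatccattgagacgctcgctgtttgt
DUSP10 (chr1:221742090-221742339, minus strand): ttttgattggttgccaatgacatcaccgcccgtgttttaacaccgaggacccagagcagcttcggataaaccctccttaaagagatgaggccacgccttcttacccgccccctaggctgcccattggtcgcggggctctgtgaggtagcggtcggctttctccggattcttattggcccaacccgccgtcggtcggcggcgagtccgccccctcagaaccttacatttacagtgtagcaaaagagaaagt
SPRY2 (chr13:80341127-80341376, minus strand): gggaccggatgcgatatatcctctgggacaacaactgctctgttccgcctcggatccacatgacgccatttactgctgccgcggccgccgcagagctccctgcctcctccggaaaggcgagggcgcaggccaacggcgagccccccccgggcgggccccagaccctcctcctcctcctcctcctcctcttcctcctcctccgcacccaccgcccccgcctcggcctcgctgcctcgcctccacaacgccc
The element occurs in 2 of the 8 promoters, once in that of DUSP1, 125 bases before the start, and in 2 places in that of DUSP8, 118 and 74 bases before it. It reads the same on both strands and was present in 1.65% of 35116 RefSeq promoters of this length. Searched on both strands, neither TGGGAA (the core bound by RBPJ, the partner of Mastermind-like proteins), TGANTCA (AP-1), CCGGAAGT (ETS), the NF-kB site nor a CArG box (serum response factor) occurred in a first entry of any of the 8 members. These motifs were present in 20.8%, 6.57%, 3.42%, 0.179% and 1.16% of all promoters, in that order. A match or its absence describes these letters in this window only.

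**Figure D1:**
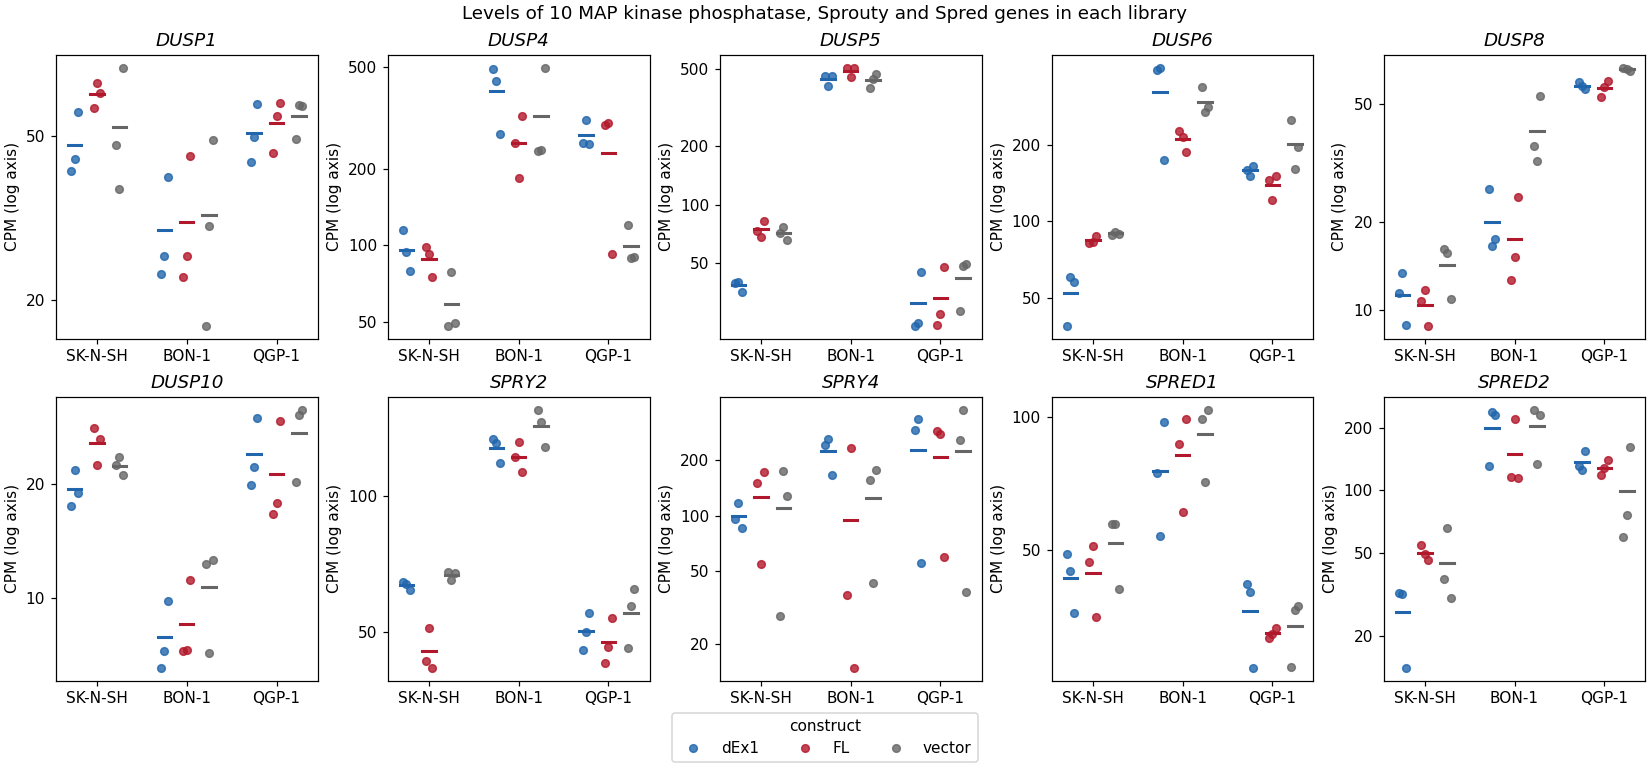
CPM of the 10 genes in each of the 27 libraries (log axis), by line, with dEx1, FL and vector from left to right; points are libraries and bars are group means. DUSP5 in SK-N-SH shows the 3 dEx1 libraries at 35.6 to 40.1 CPM, below all FL and vector libraries of that line.

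The first group holds the nuclear, inducible phosphatases DUSP1, DUSP4 and DUSP5. DUSP5, which dephosphorylates ERK in the nucleus (hg19 chromosome 10, 112257665 to 112271291, plus strand, 4 exons), had 39.8, 40.1 and 35.6 CPM in the SK-N-SH dEx1 libraries, 73.6, 68.1 and 82.8 CPM with FL and 72.0, 76.8 and 66.2 CPM with vector. The dEx1 libraries were all below the other 6, while FL and vector overlapped. DUSP5 was lower with dEx1 than with vector (-0.90, SE 0.11, adjusted p = 0.00721) and also lower than with FL (-0.96, SE 0.11, adjusted p = 0.00112). Both calls held under each of 19 alternative settings, with adjusted p up to 0.0458 against vector and 0.0110 against FL. These 2 comparisons share the dEx1 libraries. In bulk RNA, a change in some of the cells and a smaller change in all of them cannot be told apart.

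DUSP5 was not called between constructs in the pancreatic lines. In BON-1, where it was most abundant, it had 463, 412 and 462 CPM with dEx1, 504, 454 and 508 CPM with FL and 402, 444 and 475 CPM with vector. In QGP-1 it had 23.8, 24.8 and 45.4 CPM with dEx1, 24.2, 27.4 and 47.7 CPM with FL and 28.5, 48.7 and 49.5 CPM with vector. The groups overlapped in both lines. The dEx1 effect in SK-N-SH minus that in BON-1 was -0.92 for DUSP5 (SE 0.35, adjusted p = 0.317) and the effect in SK-N-SH minus that in QGP-1 was -0.47 (SE 0.35, adjusted p = 0.749), so a difference between lines was not called. The annotation holds 2 pseudogenes named after DUSP5, and whether the counting divided reads among them is not stated.

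DUSP4, a nuclear phosphatase of ERK and JNK on chromosome 8, had higher values with either construct than with vector in SK-N-SH, and neither difference was called. It had 115, 93.7 and 79.3 CPM with dEx1, 98.5, 92.1 and 74.9 CPM with FL and 48.1, 78.4 and 49.5 CPM with vector. The dEx1 libraries were all above the vector libraries, narrowly so for vector replicate 2, and the FL libraries overlapped with vector. The fitted differences were 0.71 for dEx1 against vector (SE 0.22, adjusted p = 0.101) and 0.59 for FL against vector (SE 0.22, adjusted p = 0.226). With the replicate number as a block, which paired the libraries of SK-N-SH, dEx1 against vector passed at 0.72 (adjusted p = 0.0404), and it also passed with DESeq2 at 0.69 (adjusted p = 0.0306).

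In QGP-1, DUSP4 had the largest fitted differences from vector of the 10 genes. It had 251, 309 and 249.98 CPM with dEx1, 298, 302 and 92.7 CPM with FL and 119.95, 89.1 and 89.5 CPM with vector. The 3 dEx1 libraries were more than 2 times the highest vector library, and so were FL replicates 1 and 2, while FL replicate 3 lay among the vector libraries. The fitted differences were 1.44 with dEx1 (SE 0.39, adjusted p = 1) and 1.21 with FL (SE 0.39, adjusted p = 0.894), at unadjusted p of 0.00548 and 0.0131. Without FL replicate 3 the FL value was 1.59 (adjusted p = 0.0478). BON-1 had 492, 443 and 272 CPM of DUSP4 with dEx1, 253, 183 and 322 CPM with FL and 234, 237 and 498 CPM with vector, and these groups overlapped.

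DUSP1, which acts on p38 and JNK as well as ERK (hg19 chromosome 5, 172195099 to 172198198, minus strand, 4 exons), was not called in any comparison of constructs. In SK-N-SH it had 41.0, 43.9 and 57.2 CPM with dEx1, 58.5, 67.2 and 63.5 CPM with FL and 47.6, 37.2 and 73.2 CPM with vector. The dEx1 libraries were all below the FL libraries, and the vector libraries spanned both groups. The difference of dEx1 from FL was -0.41 (SE 0.23, adjusted p = 0.245), and leaving out replicate 3 of all groups gave -0.58 (adjusted p = 0.0252). Over the other 2 lines DUSP1 ranged from 17.3 to 60.3 CPM, with the groups overlapping in each line.

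DUSP6 is the cytoplasmic ERK phosphatase (hg19 chromosome 12, 89741012 to 89746278, minus strand, 3 exons). It had 38.7, 60.1 and 57.8 CPM in the SK-N-SH dEx1 libraries, 82.0, 83.1 and 87.8 CPM with FL and 88.4, 91.1 and 89.4 CPM with vector. The dEx1 libraries lay below all others, and the FL libraries were all just below the vector libraries. DUSP6 was lower with dEx1 than with vector (-0.78, SE 0.15, adjusted p = 0.0272) and than with FL (-0.69, SE 0.15, adjusted p = 0.0135). The call against FL held under all 19 alternatives (adjusted p up to 0.0445). The call against vector was lost without vector replicate 1 (adjusted p = 0.0973), vector replicate 2 (0.1003), FL replicate 1 (0.0536) or dEx1 replicate 3 (0.0537), with fold changes of -0.77 to -0.87 in those fits.

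In BON-1, DUSP6 had 397, 404 and 175 CPM with dEx1, 229, 215 and 189 CPM with FL and 340.2, 270.1 and 282 CPM with vector. The FL libraries were all below the vector libraries, and dEx1 spanned the whole range, with replicate 3 low. In QGP-1 it had 160.2, 151 and 166 CPM with dEx1, 146, 122 and 151 CPM with FL and 252, 160.5 and 197 CPM with vector, and FL was again below all vector libraries. The FL difference in QGP-1 was -0.54 (SE 0.17, unadjusted p = 0.0107, adjusted p = 0.879). The DUSP6 libraries of the construct were all below those of vector in 4 of the 6 comparisons with vector. These were FL in each line and dEx1 in SK-N-SH, and both comparisons of a line share its vector libraries. For FL the groups did not overlap, in either direction, for 21.4% of all genes in SK-N-SH, 8.6% in BON-1 and 11.1% in QGP-1. For dEx1 in SK-N-SH this share was 26.7%. The FL difference of DUSP6 was not called in any line. It was -0.089 in SK-N-SH (SE 0.15, adjusted p = 0.847) and -0.50 in BON-1 (SE 0.28, adjusted p = 0.928). The dEx1 effect in SK-N-SH minus that in BON-1 was -0.91 (SE 0.32, adjusted p = 0.277), and without BON-1 dEx1 replicate 3 it was -1.21 (SE 0.24, adjusted p = 0.0334).

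DUSP8 and DUSP10 act on JNK and p38 rather than ERK. DUSP8 (hg19 chromosome 11, 1575281 to 1593501, minus strand, 7 exons), whose promoter holds the 2 response elements shown above, had 25.8, 16.5 and 17.5 CPM in the BON-1 dEx1 libraries, 12.7, 15.2 and 24.3 CPM with FL and 36.1, 32.1 and 53.2 CPM with vector. The libraries of both constructs were all below the vector libraries. The fitted differences in BON-1 were -1.02 with dEx1 (SE 0.30, unadjusted p = 0.00762, adjusted p = 0.916) and -1.22 with FL (SE 0.30, unadjusted p = 0.00287, adjusted p = 0.928). Neither was called in any of 19 alternatives, where the lowest adjusted p were 0.235 and 0.0608.

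In QGP-1, DUSP8 had 59.3, 57.6 and 56.3 CPM with dEx1, 52.8, 57.3 and 60.1 CPM with FL and 66.5, 66.0 and 64.7 CPM with vector. Both constructs were again below every vector library, by a small margin, and the FL difference was -0.21 (SE 0.091, unadjusted p = 0.0454, adjusted p = 0.970). In SK-N-SH it was scarcer, at 11.5, 13.4 and 8.91 CPM with dEx1, 10.8, 11.8 and 8.86 CPM with FL and 16.2, 15.7 and 10.9 CPM with vector, with overlap in both comparisons. The fitted difference from vector was below 0 in all 6 comparisons for DUSP8, as it was for SPRY2, and none of those of DUSP8 was called. Both comparisons of a line share its vector libraries, and the share of all genes with the same sign in all 6 was not counted. The annotation holds 5 pseudogenes named after DUSP8, so its counts carry the same uncertainty as those of DUSP5.

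DUSP10 (hg19 chromosome 1, 221874766 to 221915431, minus strand, 4 exons) had 17.5, 21.8 and 18.9 CPM in the SK-N-SH dEx1 libraries, 28.2, 22.5 and 26.3 CPM with FL and 22.4, 23.7 and 21.1 CPM with vector. All dEx1 libraries were below all FL libraries, by a narrow gap, and the vector libraries overlapped with both. DUSP10 was lower with dEx1 than with FL (-0.40, SE 0.12, adjusted p = 0.0469). The call was lost under 10 of 19 alternatives, among them leaving out FL replicate 1 (adjusted p = 0.159), FL replicate 3 (0.0853), dEx1 replicate 1 (0.162), dEx1 replicate 3 (0.120), vector replicate 1 (0.0729) or vector replicate 2 (0.0663). In BON-1 it lay between 6.51 and 12.6 CPM and in QGP-1 between 16.6 and 31.5 CPM, with no separation between constructs.

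SPRY2, an inhibitor of receptor tyrosine kinase signalling upstream of RAF (hg19 chromosome 13, 80910111 to 80915261, minus strand, 2 exons), was the only one of the 10 genes called for FL against vector. In SK-N-SH it had 64.8, 63.8 and 62.2 CPM with dEx1, 43.2, 51.2 and 41.7 CPM with FL and 67.9, 65.4 and 67.8 CPM with vector. The FL libraries were below all others, and the dEx1 libraries were just below the vector libraries. SPRY2 was lower with FL than with vector (-0.56, SE 0.094, adjusted p = 0.0284) and higher with dEx1 than with FL (0.49, SE 0.094, adjusted p = 0.00821). The difference between dEx1 and FL was called under all 19 alternatives (adjusted p up to 0.0396).

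The call of SPRY2 for FL against vector was close to the threshold. It was lost without FL replicate 1 (adjusted p = 0.135), FL replicate 2 (0.0504), dEx1 replicate 1 (0.0610), dEx1 replicate 3 (0.0543), vector replicate 1 (0.0960), vector replicate 2 (0.0832) or vector replicate 3 (0.0537), and the fold change in all 19 alternatives stayed between -0.66 and -0.50. In BON-1, SPRY2 had 134, 131 and 119 CPM with dEx1, 122, 132 and 113 CPM with FL and 156, 146 and 129 CPM with vector. In QGP-1 it had 45.6, 49.98 and 55.1 CPM with dEx1, 42.9, 46.5 and 53.7 CPM with FL and 46.1, 57.1 and 62.4 CPM with vector. The groups overlapped in both lines, and the FL effect in SK-N-SH minus that in BON-1 was -0.33 (SE 0.17, adjusted p = 0.599).

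SPRY4, the other Sprouty gene among the 10 members (hg19 chromosome 5, 141689992 to 141706020, minus strand, 2 exons), varied widely between libraries of the same group. In SK-N-SH it had 95.9, 117 and 85.5 CPM with dEx1, 150.4, 54.6 and 174 CPM with FL and 28.3, 174 and 128 CPM with vector. In BON-1 it had 242, 263 and 167 CPM with dEx1, 36.8, 232 and 14.8 CPM with FL and 156, 42.9 and 176 CPM with vector, and in QGP-1 292, 336 and 55.4 CPM with dEx1, 288, 279 and 59.6 CPM with FL and 258, 378 and 38.4 CPM with vector. Replicate 3 was the lowest library in all 3 QGP-1 groups and in the dEx1 and FL groups of BON-1, whereas replicate 2 was lowest with vector in BON-1 and the lowest library of each SK-N-SH group had a different number. The groups overlapped in every comparison.

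The ratio of the highest to the lowest library of SPRY4 was over 4 in 6 of the 9 groups and reached 15.7 in BON-1 FL. Of the genes with a group mean of at least 10 CPM, 0.393% to 3.37% had a ratio over 4 in a group, and none of the other 9 members did in any. SPRY2 was the steadiest member by this measure, with ratios of 1.04 to 1.35. The antisense gene SPRY4-AS1 overlaps the start of SPRY4 in the annotation. Since no source says whether counting used strand, reads from the stretch that the pair shares cannot be told apart. Its part in the spread of SPRY4 was not tested.

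**Figure D2:**
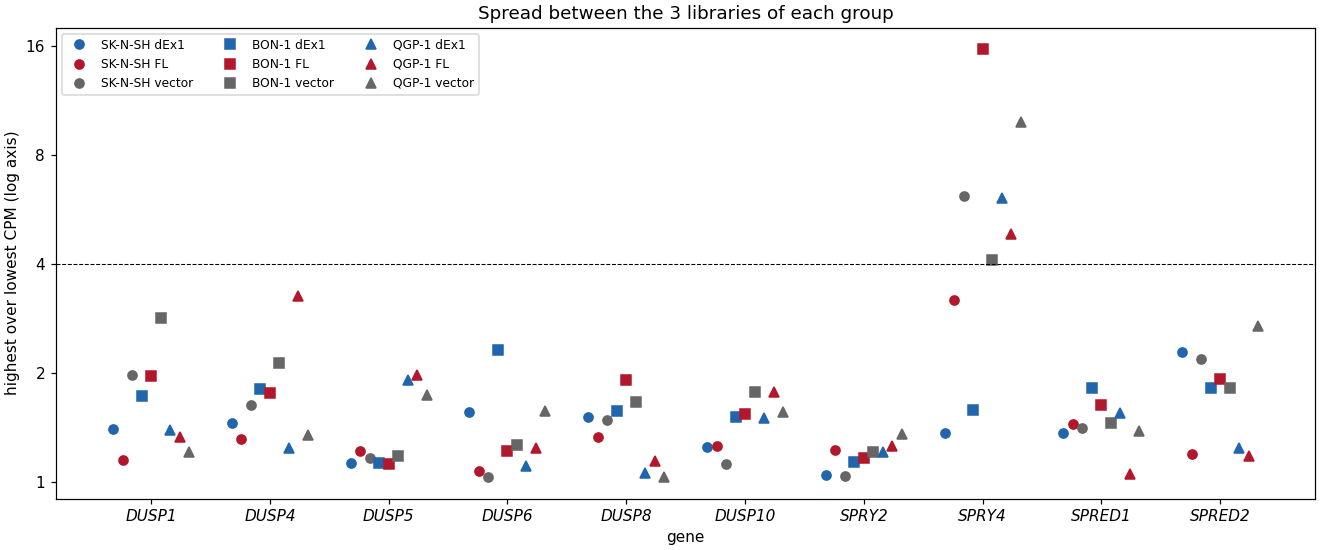
Ratio of the highest to the lowest CPM among the 3 libraries of each group (log axis), for the 10 genes; colours give the construct, symbols the line, and the dashed line marks a ratio of 4. Only SPRY4 passes the line, in 6 of 9 groups.

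The Spred genes were not called in any comparison of constructs. SPRED2, which like its relative dampens RAS to ERK signalling (hg19 chromosome 2, 65537985 to 65659771, minus strand, 6 exons), had 32.1, 31.9 and 14.04 CPM in the SK-N-SH dEx1 libraries, 54.7, 49.3 and 46.1 CPM with FL and 37.6, 65.9 and 30.2 CPM with vector. The dEx1 libraries were below all FL libraries, with replicate 3 lowest, and the vector libraries overlapped with both. The difference of dEx1 from FL was -0.95 (SE 0.36, adjusted p = 0.0902). It passed with the replicate number as a block (-1.04, adjusted p = 0.0200) and with DESeq2 (-0.96, adjusted p = 0.0305). In BON-1 the gene had 114 to 244 CPM and in QGP-1 59.9 to 162 CPM.

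SPRED1, which brings the RAS inhibitor neurofibromin to the membrane (hg19 chromosome 15, 38545037 to 38649450, plus strand, 7 exons), had 48.9, 44.7 and 35.9 CPM with dEx1, 47.0, 50.9 and 35.2 CPM with FL and 57.3, 57.3 and 40.7 CPM with vector in SK-N-SH. Replicate 3 was the lowest of each group and the groups overlapped. The difference of dEx1 from vector was -0.26 (SE 0.19, adjusted p = 0.459), and without replicate 3 of all groups it was -0.31 (adjusted p = 0.0494). It ranged from 53.7 to 104 CPM in BON-1 and from 26.96 to 41.7 CPM in QGP-1.

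**Figure D3:**
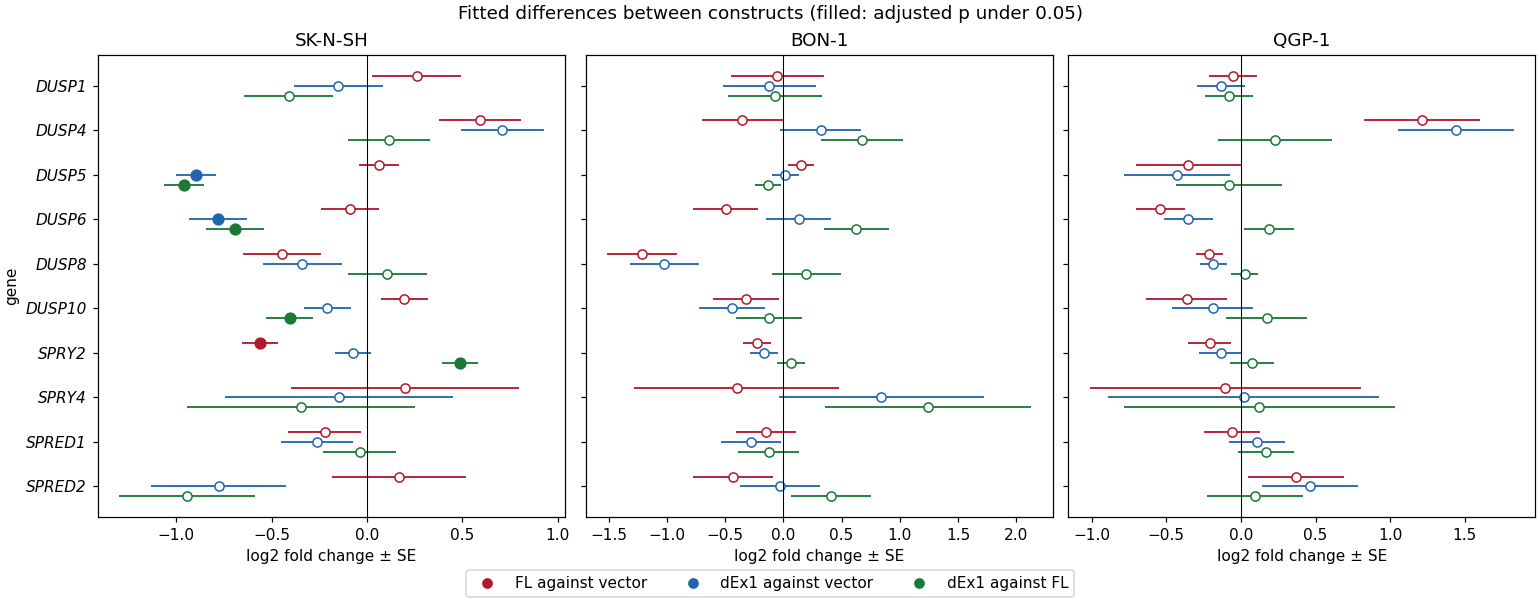
Fitted log2 fold changes with SE for the 10 genes in each line, for FL against vector, dEx1 against vector and dEx1 against FL; filled points have an adjusted p under 0.05. The 7 filled points are all in SK-N-SH: SPRY2 for FL against vector, DUSP5 and DUSP6 for dEx1 against vector, and DUSP5, DUSP6, DUSP10 and SPRY2 for dEx1 against FL.

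Set against all genes, the counts in SK-N-SH were as follows. For dEx1 against vector 2 of the 10 members were called, both lower, where 4.47% of 14674 genes were called and 3.64% were called lower. For FL against vector 1 member was called, lower, where 1.74% of genes were called and 0.804% lower. For dEx1 against FL 4 members were called, 1 higher and 3 lower, where 22% of genes were called, 10.5% higher and 11.5% lower. The median fold change of the 10 genes was -0.24, 0.12 and -0.38 in these 3 comparisons, while the median over all genes was within 0.02 of 0 in each. The groups did not overlap for 4, 2 and 6 members, where this held for 26.7%, 21.4% and 43.4% of all genes.

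In BON-1 and QGP-1 none of the 10 genes was called by edgeR's quasi-likelihood test, and few genes of any kind were. The share of all genes called was 0.0134% for dEx1 against vector, 0.00671% for FL against vector and 0% for dEx1 against FL in BON-1, and 0.0207%, 0.0275% and 0.0138% in QGP-1. At an unadjusted p under 0.05, 1, 1 and 0 members passed in BON-1, where 2.88%, 3.86% and 1.05% of all genes did, and 1, 3 and 0 in QGP-1, where 3.63%, 5.08% and 1.28% did. DESeq2 called none of the members and 8 to 112 genes in each of these comparisons. The adjusted p of the members were at least 0.879 in these 6 comparisons. Groups did not overlap for 1, 2 and 0 members in BON-1, where this held for 8.25%, 8.6% and 5.59% of all genes, and for 2, 2 and 0 in QGP-1, where it held for 9.04%, 11.1% and 4.55%.

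Whether a construct acted differently in 2 lines was tested in 1 model of all 27 libraries. No member was called in any of the 6 such contrasts by edgeR, where 16883 genes were tested. For the effect of dEx1, 0.332% of all genes were called for SK-N-SH minus BON-1, 0.521% for SK-N-SH minus QGP-1 and 0% for QGP-1 minus BON-1, and for the effect of FL 0.284%, 0.16% and 0.0118%. At an unadjusted p under 0.05, 2, 1 and 2 members passed for dEx1, in the same order of lines, where 10.9%, 10.3% and 3.91% of all genes did, and 1, 0 and 2 for FL, where 9.38%, 8.64% and 4.63% did. DESeq2 called none of the members and 38 to 397 genes in each contrast. By this model, the effects of dEx1 on DUSP5 and DUSP6 in SK-N-SH are not shown to differ from those in the pancreatic lines. The model shares 1 estimate of spread per gene across the lines. For DUSP5, the dEx1 contrast of SK-N-SH minus BON-1 had an SE of 0.35. In the fit of each line, dEx1 against vector had an SE of 0.11 in SK-N-SH, 0.11 in BON-1 and 0.36 in QGP-1. A contrast between lines with a separate spread for each line was not run.

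The lines differed widely in how much of these genes they expressed with the empty vector. On a scale common to all 27 libraries, BON-1 had the highest mean of DUSP4, DUSP5, DUSP6, SPRY2, SPRED1 and SPRED2. DUSP5 averaged 74.1 ± 5.82 CPM in SK-N-SH, 39.4 ± 11.04 CPM in QGP-1 and 458 ± 34.0 CPM in BON-1 (SD, n = 3 each). It was lower in SK-N-SH than in BON-1 by edgeR (-2.63, SE 0.26, adjusted p = 1.53e-08), higher in SK-N-SH than in QGP-1 (0.91, SE 0.25, adjusted p = 0.00295) and lower in QGP-1 than in BON-1 (-3.54, SE 0.27, adjusted p = 5.47e-10). DUSP6 averaged 92.7 ± 1.66, 189 ± 43.2 and 310.1 ± 43.9 CPM in SK-N-SH, QGP-1 and BON-1. DUSP8 had its highest mean in QGP-1, at 61.3 ± 0.954 CPM, against 14.7 ± 3.06 CPM in SK-N-SH and 42.2 ± 11.7 CPM in BON-1. QGP-1 and BON-1 were not called different for DUSP8 by edgeR (0.54, SE 0.23, adjusted p = 0.0562), but were under 19 of 34 alternatives.

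SPRY2 averaged 69.3 ± 1.25 CPM in SK-N-SH, 51.5 ± 7.66 CPM in QGP-1 and 149.5 ± 15.4 CPM in BON-1, and the 3 lines were called different from each other, although SK-N-SH and QGP-1 were not without QGP-1 vector replicate 1 (adjusted p = 0.0680) or with only the 9 vector libraries (0.0528). DUSP4 averaged 60.7 ± 17.9, 92.9 ± 16.7 and 336 ± 157 CPM in SK-N-SH, QGP-1 and BON-1, and the neighbours SK-N-SH and QGP-1 were not called different (-0.61, SE 0.36, adjusted p = 0.142). DUSP10 was the member that BON-1 had least of, with 23.2 ± 1.41, 25.6 ± 5.77 and 11.1 ± 3.30 CPM in SK-N-SH, QGP-1 and BON-1. By edgeR with all libraries, DUSP1 and SPRY4 were not called between any lines. DUSP1 was called for SK-N-SH against BON-1 without BON-1 vector replicate 3 (1.16, adjusted p = 0.00427), SK-N-SH vector replicate 2 (0.0278), BON-1 FL replicate 3 (0.0419) or BON-1 dEx1 replicate 3 (0.0499), by DESeq2 (0.0455) and with counts divided by 5 (0.0469), and for QGP-1 against BON-1 without BON-1 vector replicate 3 (1.09, adjusted p = 0.00823).

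SPRED1 averaged 53.6 ± 10.1, 31.4 ± 5.29 and 95.2 ± 19.1 CPM in SK-N-SH, QGP-1 and BON-1, and SPRED2 averaged 46.2 ± 19.7, 92.6 ± 50.9 and 212 ± 64.9 CPM. The order of the lines thus differed between these relatives, with QGP-1 lowest for SPRED1 and SK-N-SH lowest for SPRED2. SPRED2 was called lower in SK-N-SH than in QGP-1 (-1.01, SE 0.38, adjusted p = 0.0277), but not without SK-N-SH vector replicate 1 (adjusted p = 0.0799) or 3 (0.103), QGP-1 vector replicate 3 (-0.45, adjusted p = 0.317) or with only the 9 vector libraries (0.0688). In all, 8 members were called for SK-N-SH against BON-1, 6 for SK-N-SH against QGP-1 and 7 for QGP-1 against BON-1, where 60.6%, 60.6% and 51.4% of all genes were called. Line and medium cannot be told apart.

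**Figure D4:**
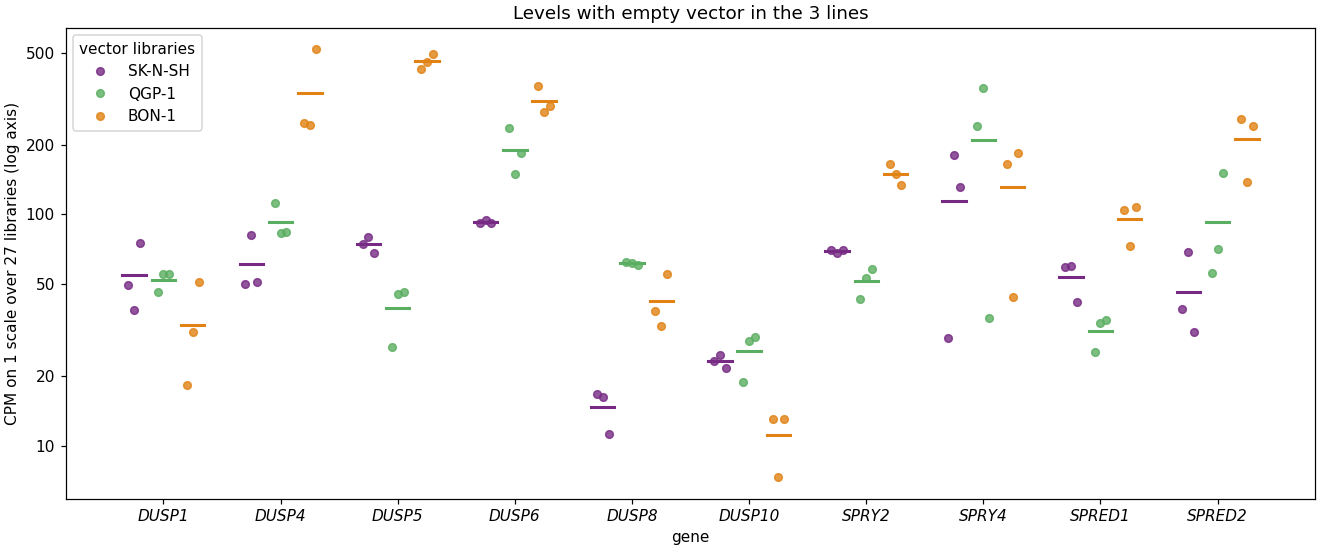
CPM of the 10 genes in the vector libraries of the 3 lines, on a scale common to all 27 libraries (log axis); points are libraries and bars are means. BON-1 has the highest mean of 6 genes, with DUSP5 at 458 CPM, and DUSP8 has its highest mean in QGP-1, at 61.3 CPM. DUSP8 was not called different between QGP-1 and BON-1.

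Other genes of the same pathways were read from 8 lists, to be set beside the 4.47% of all genes called for dEx1 against vector, 1.74% for FL against vector and 22% for dEx1 against FL in SK-N-SH. Early genes and transcription factors that respond to ERK were the list with the most calls against vector in SK-N-SH: with dEx1 6 of 20 measured genes were lower and none higher, with a median fold change of -0.37. PHLDA1, a growth factor responsive gene, changed by -1.27 (SE 0.25, adjusted p = 0.0282), at 137 ± 24.0 CPM with dEx1 and 330 ± 103 CPM with vector (SD, n = 3 each). JUNB, an AP-1 subunit, changed by -1.24 (SE 0.16, adjusted p = 0.00883), EGR1, the early growth response factor, by -1.15 (SE 0.20, adjusted p = 0.0201) and FOSL1, another AP-1 subunit, by -0.85 (SE 0.18, adjusted p = 0.0388). The other members of the list called lower were JUN and CCND1, which encodes cyclin D1. DUSP5 and DUSP6 were called lower in the same comparison.

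That count was unstable: without dEx1 replicate 1 none of the 20 was called, JUNB included (adjusted p = 0.0505), and over the 19 alternatives the number lower ranged from 0 to 8. EGR1 was also lost without dEx1 replicate 3 (adjusted p = 0.0728) or vector replicate 1 (0.0754). PHLDA1 and FOSL1 were lost without FL replicate 1, any dEx1 replicate, or vector replicate 1 or 2, with adjusted p up to 0.113 and 0.159. With FL, none of the 20 was called against vector. For dEx1 against FL 7 were lower and none higher, led by EGR3 (-2.36, SE 0.48, adjusted p = 0.00990), PHLDA1 (-1.46, SE 0.25, adjusted p = 0.00497), JUNB (-1.08, SE 0.16, adjusted p = 0.00273) and FOSL1 (-0.99, SE 0.18, adjusted p = 0.00695), and this number ranged from 5 to 9 over the alternatives.

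Of 12 other feedback inhibitors, SPSB1, an adaptor that targets proteins for degradation, was lower with dEx1 than with vector in SK-N-SH (-0.92, SE 0.11, adjusted p = 0.00712) and than with FL (-0.96, SE 0.11, adjusted p = 0.00121), under all 19 alternatives. IL17RD, also known as SEF, which holds back FGF signalling, was lower with FL than with vector (-1.14, SE 0.20, adjusted p = 0.0305), at 5.30 ± 1.39 CPM with FL and 11.7 ± 1.41 CPM with vector, and higher with dEx1 than with FL (1.71, SE 0.20, adjusted p = 0.00132). The call of IL17RD against vector was lost in 9 of 19 alternatives, which included leaving out any dEx1 replicate, FL replicate 1 or 2, or vector replicate 1 or 2 (adjusted p up to 0.116 in these). For dEx1 against FL, 2 of the 12 were higher and 3 lower, with LRIG1, an inhibitor of ERBB receptors, at -2.01 (SE 0.35, adjusted p = 0.00502).

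Among the remaining relatives, SPRY1 was higher with dEx1 than with FL in SK-N-SH (1.40, SE 0.32, adjusted p = 0.0161), at 18.6 ± 5.52 CPM with dEx1 and 7.06 ± 1.43 CPM with FL. This was lost without FL replicate 1 (adjusted p = 0.0650) or 2 (0.0593) or dEx1 replicate 1 (0.0504) or 3 (0.0584). None of the other MAP kinase phosphatases was called (3 of 4 measured). Of 18 genes of the RAS to ERK cascade, none was called for dEx1 against vector, MAP2K1, the ERK kinase MEK1, was the only call for FL against vector (0.38, SE 0.071, adjusted p = 0.0407), and 6 were higher and 1 lower for dEx1 against FL, with MAPK3 (ERK1) at 0.99 (SE 0.21, adjusted p = 0.0110) and MAP2K1 at -0.52 (SE 0.071, adjusted p = 0.00210). Over the alternatives, the number of cascade genes higher for dEx1 against FL ranged from 3 to 7. The call of MAP2K1 against vector was lost when any 1 of the 9 libraries other than FL replicate 3 was left out (adjusted p = 0.0567 to 0.169).

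In the JNK and p38 cascade, which DUSP8 and DUSP10 oppose, 0 of 12 genes were called for dEx1 against vector and 1 was higher for FL against vector. This was MAP2K3, a p38 kinase kinase (0.49, SE 0.098, adjusted p = 0.0481), and it was lost when any 1 of the 9 libraries other than FL replicate 3 was left out (adjusted p = 0.0597 to 0.173). For dEx1 against FL 1 was higher and 3 lower, MAP2K3 among them (-0.85, SE 0.099, adjusted p = 0.00132). Of 13 receptor tyrosine kinases, 3 were higher with dEx1 than with FL, including FGFR4 (1.31, SE 0.18, adjusted p = 0.00235), and none was called against vector. A count of 3 in 13 is near the 22% of all genes called in that comparison, and it ranged from 1 to 5 over the alternatives. Of 10 ligands of EGF and FGF receptors, 3 were lower with dEx1 than with FL (FGF2, BTC and EREG), FGF2 by -1.62 (SE 0.25, adjusted p = 0.00311). For dEx1 against vector BTC was lower, and for FL against vector EREG was higher and FGF5 lower (-0.55, SE 0.11, adjusted p = 0.0487, lost in 11 of 19 alternatives). Epiregulin (EREG) had 0 to 0.279 CPM with dEx1, 4.87 to 50.5 CPM with FL and 0 to 0.0300 CPM with vector, so no fold is given, and its call for FL against vector was lost in 5 of 19 alternatives. Betacellulin (BTC) was at 0 in all dEx1 libraries and had 0.825 to 1.32 CPM with FL and 0.409 to 0.759 CPM with vector. In BON-1 and QGP-1 none of the 8 lists had a call between constructs.

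Some genes had a pattern over the 9 groups close to that of a called member, by the root mean square difference of mean log2 CPM centred within each line, among 12352 genes. For DUSP5 these were TRIM5 (0.0768), RNF114 (0.0865) and DENND5A (0.0880), where a flat profile lies 0.277 away. RNF114, for example, averaged 73.9 ± 8.86 CPM with dEx1, 138 ± 25.6 CPM with FL and 138 ± 8.14 CPM with vector in SK-N-SH. For DUSP6 they were CPNE7 (0.0745), ZBTB42 (0.0942) and BTG1 (0.0975), with a flat profile at 0.279. For SPRY2 they included CLHC1 (0.0363) and MGAT4B (0.0394), with a flat profile at 0.160.

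Total counts per library were 81739994 to 105566404 in SK-N-SH, 73026244 to 110350759 in BON-1 and 79395945 to 120254457 in QGP-1. Of 8 adrenergic neuroblastoma markers 7 were over 1 CPM in each SK-N-SH group, with TH at 0 in the dEx1 and FL groups, and of 11 pancreatic neuroendocrine and epithelial markers 10 were in each BON-1 and QGP-1 group, with NEUROD1 at 0 in QGP-1. All 6 mesenchymal neuroblastoma markers were over 1 CPM in each SK-N-SH group. Their sum was 8967 to 11905 CPM in that line, against 108 to 265 CPM for the adrenergic list. In BON-1, 5 of these 6 were over 1 CPM, with a sum of 920 to 1340 CPM. The lists of leukocyte and fibroblast markers differed between the SK-N-SH groups in which the members changed. Whether SK-N-SH cells or other cells made these transcripts was not tested. The sum of 5 leukocyte markers was 77.8 to 91.9 CPM with dEx1, 405 to 523 CPM with FL and 217 to 310 CPM with vector, nearly all of it CD68, while CD3E was at 0 and PTPRC, the marker common to leukocytes, did not exceed 1.05 CPM. The sum of 5 fibroblast markers was 5029 to 7873 CPM with dEx1, 1943 to 3448 CPM with FL and 2051 to 6472 CPM with vector, led by COL1A1, and its part in the results above was not tested.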

How the data were processed

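RNA libraries (TruSeq mRNA kit) of 27 cultures were processed with Trimmomatic, HISAT2 and StringTie on hg19, per the submitters' processing notes, with no versions given. The authors deposited whole-number counts per gene. How StringTie output became counts, with which annotation and on which strand, is not given in the sources used here, and low values heap at 5, so what 1 fragment is worth is not known. Of 23234 rows, 4 symbols appeared on a second line, leaving 23230.

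Each line was fitted on its 9 libraries in R 4.3.3 with edgeR 4.0.16 (filterByExpr, TMM, quasi-likelihood F test, Benjamini-Hochberg over all genes tested, threshold 0.05). Vector levels across lines and contrasts between lines came from 1 fit of 27 libraries. All adjusted p for genes are from these fits unless DESeq2 1.42.0 is named. The fit was tested on simulated data. The p-values cover the spread between replicate cultures.

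The alternatives tried were dropping the filter, a mean of at least 2 CPM, DESeq2 size factors, DESeq2, a robust estimate of the spread, counts divided by 5, a replicate block, only the 6 libraries compared, all 27 libraries, and leaving out libraries. Replicate numbers from the labels were taken as pairing libraries where the deviations from the group means correlated above 0.1 in each of 3 pairs. This held for all 3 comparisons in SK-N-SH (lowest 0.127), for both dEx1 comparisons in BON-1, and in QGP-1 for dEx1 against FL. Against vector in QGP-1, replicate 2 correlated at -0.36 for FL and -0.38 for dEx1, while replicates 1 and 3 were at 0.62 to 0.63. No pair of replicates agreed within sampling noise (chi-square per degree of freedom of at least 53.6). The lowest value was that of QGP-1 vector replicates 2 and 3, while vector replicate 1 of that line was at 482 and 507 from them.

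The 10 genes, the pathway and marker lists and the tests were chosen with earlier results of these data known. Named genes were the 10 members, MAML3, up to 4 called genes with the largest fold change per list and comparison, and the 3 genes most like each member called against vector, of which 1 is not reported here. Gene positions are from GENCODE on hg19, and promoters from RefSeq on GRCh38.p14.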

Additional observations from a re-analysis of the deposited data

How the results depend on the processing

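Calls of members were counted under each alternative. The call of 1 member for FL against vector in SK-N-SH became 0 with only the 6 libraries compared, and 0 to 1 members were called when 1 library was left out. For dEx1 against vector in SK-N-SH 2 calls became 1 with only the 6 libraries compared and 1 with all 27 libraries in 1 fit, and 1 to 3 with libraries left out. For dEx1 against FL the 4 calls ranged from 3 to 5. In QGP-1, FL against vector had 0 to 1 calls with 1 library left out, and the dEx1 effect in SK-N-SH minus that in BON-1 also had 0 to 1. The other comparisons of constructs in BON-1 and QGP-1 and the other contrasts between lines stayed at 0. Calls between vector groups ranged from 8 to 9 for SK-N-SH against BON-1, from 4 to 6 for SK-N-SH against QGP-1 and from 5 to 9 for QGP-1 against BON-1. DUSP5 in both of its comparisons, and DUSP6 and SPRY2 for dEx1 against FL, were called under all 19 alternatives. With only the 6 libraries compared, the adjusted p was 0.106 for SPRY2 with FL and 0.0652 for DUSP6 with dEx1. The replicate block gained calls of DUSP4 (0.72, adjusted p = 0.0404) and SPRED2 (-1.04, adjusted p = 0.0200) and changed no other call of a member. The 18 fold changes printed between constructs were chosen for an unadjusted p under 0.05 by edgeR or a call under some setting. None took the other sign under any of 342 settings run, an outcome that this choice favours. Of these settings, 24 lost a call and 7 gained one. Of 72 not printed, 33 took the other sign under some setting, none above 0.40 in size. The cause of these shifts was not tested, beyond the fewer libraries in some fits. SPRY4 differed up to 15.7 times between libraries of a group, with an SE of 0.60 to 0.91 for its fold changes between constructs. The size of change that these libraries could detect for the members is not given here.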
